A study of Mus musculus with 38 samples.

Results

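The hypothalamus of adult female mice was compared between homozygous Ube3a2X and wild-type (WT) animals, across all genes and by gene group. The members are the 9 female hypothalamus libraries among the 38 libraries of the series, chosen by the tissue, genotype and sex that their labels give. They comprise 5 Ube3a2X libraries (mice 272, 417, 420, 462 and 468) and 4 WT libraries (mice 262, 398, 410 and 471). All animals were on the FVB/NJ background, WT mice were littermates, and no treatment separated the groups. Ube3a2X mice carry additional transgenic copies of Ube3a beside the intact endogenous gene, and each transgene encodes a C-terminally FLAG-tagged protein whose ligase activity is uncertain. Each library was made from the dissected hypothalamus of 1 mouse by stranded RNA-seq of mRNA. The comparison addresses which hypothalamic genes differ in females when Ube3a is present in excess.

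UBE3A is a HECT-type ubiquitin ligase that attaches ubiquitin to substrate proteins, many of which are then degraded by the proteasome, and it also acts as a coactivator of steroid hormone receptors. In neurons, Ube3a is imprinted: the maternal allele is active, and the long antisense transcript Snhg14 silences the paternal one. Loss of the maternal copy causes Angelman syndrome, and duplication of the region is associated with autism. The hypothalamus holds peptide-producing neurons that control feeding, arousal, water balance and pituitary hormones, beside glia and the ciliated cells that line the third ventricle. In bulk tissue, fewer cells of a type and less RNA per cell cannot be told apart.

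One WT library, 471, stood apart from the other 8. On the first principal component of the log2 CPM values (read counts scaled to a common library size), which held 79.3% of the variance, it scored 82.6, and the other libraries scored between -18.7 and -5.29. In it, 37.5% of the aligned bases were coding and 53.7% were in untranslated regions, against 46.9% to 50.1% and 41.8% to 44.0% elsewhere. Its depth of 39.0 M (mega) counted reads was the lowest, and the other depths were 68.2 to 69.6 M in WT and 75.6 to 381 M in Ube3a2X mice, with 381 M in mouse 420. Every Ube3a2X library was therefore deeper than every WT library, so depth and genotype cannot be told apart in these 9 libraries, and values below are CPM after TMM normalization. The RNA integrity number (RIN) was 8.8 to 9.3. The tissue label was checked with Pmch, the melanin-concentrating hormone gene of the lateral hypothalamus, at 475 to 1322 CPM, and with Slc17a7, the vesicular glutamate transporter of cortical neurons, at 0.439 to 2.21 CPM. In the female prefrontal cortex (PFC) of the series, Slc17a7 was at 1653 to 1873 CPM. Because of library 471, most values are given with all 9 libraries and without it.

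Ube3a (ENSMUSG00000025326; GRCm38, chr7:59228750-59311536, plus strand) is the gene that the transgene adds. It was at 378 CPM in WT 262, 319 in WT 398, 301 in WT 410 and 121 in WT 471. In the Ube3a2X libraries it was at 1086 CPM in 272, 1592 in 417, 1690.45 in 420, 1109 in 462 and 1785 in 468. The groups did not overlap, and the lowest value was that of library 471. Ube3a rose 5.31-fold in Ube3a2X females, 4.46- to 6.31-fold within 1 SE (log2 fold change 2.41, SE 0.25, edgeR quasi-likelihood test with RIN, adjusted p = 0.0128). Without WT 471 it rose 4.48-fold (log2 fold change 2.16, SE 0.20, edgeR adjusted p = 0.0178). The call was lost without WT 398, WT 410 or Ube3a2X 420 (edgeR adjusted p = 0.103, adjusted p = 0.113 and adjusted p = 0.0601) and in 7 other alternative fits, while the log2 fold change lay between 2.14 and 2.64 in all 26. The counts do not tell transgene reads from those of the endogenous gene. Libraries 272 and 462 were the lowest of the Ube3a2X group.

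The remaining genes of the locus were not called, and most of their values depended on WT 471. 9330162G02Rik (chr7:59223847-59254788, minus strand) is an unclassified transcript on the strand opposite Ube3a, overlapping its start. It was at 25.5, 20.2, 17.2 and 12.9 CPM in WT 262, 398, 410 and 471, and at 16.4, 29.7, 26.0, 29.8 and 34.7 CPM in Ube3a2X 272, 417, 420, 462 and 468. Of the 5 Ube3a2X libraries, 4 exceeded every WT library and 272 did not. Its log2 fold change of 0.49 had an SE of 0.20 (adjusted p = 0.655 in edgeR), and it was 0.46 without WT 471 (SE 0.22). It was 0.32 without WT 410, 0.69 without WT 262 and 0.24 (SE 0.22) with all libraries once the trend with GC content and gene length was taken out. The unadjusted p was under 0.05 with all 9 libraries and above it without WT 471. Reads with the strand of their gene were 95.7% in WT 471 and 97.7% to 99.0% in the others, and the part in this value of Ube3a reads assigned to the wrong strand was not tested. Snhg14 (chr7:59307924-59975759, minus strand) was at 164, 145 and 165 CPM in WT 262, 398 and 410, at 38.3 in WT 471, and at 144 to 191 CPM in Ube3a2X libraries, so the groups overlapped (log2 fold change 0.50, SE 0.25, and 0.15, SE 0.10, without WT 471). Herc2, the large ubiquitin ligase gene at the other end of the region, was at 391 to 406 CPM in 3 WT libraries, 129 in WT 471 and 384 to 409 in Ube3a2X libraries. Its log2 fold change of 0.35 became 0.02 without WT 471. The paternally expressed genes Snrpn (splicing factor, -0.21 and -0.04 on the log2 scale with and without WT 471), Ndn (necdin, -0.25 and 0.02) and Magel2 (a regulator of protein trafficking in hypothalamic neurons, 0.00 and -0.03) all had p above 0.05. So did the lipid flippase gene Atp10a (0.04 and -0.19) and the GABA-A receptor subunit genes Gabra5 (0.02 and 0.01) and Gabrg3 (0.12 and -0.08). Snurf, Mkrn3, Peg12 and Oca2 were not tested, since they did not pass the filters on low or invariant counts.

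**Figure D1:**
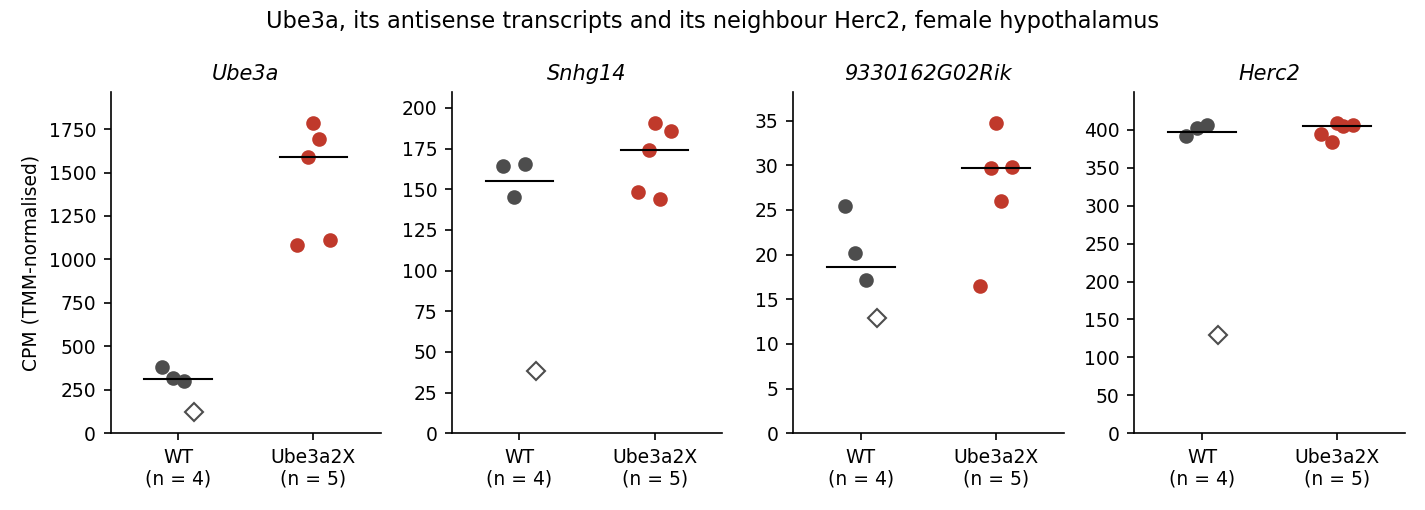
CPM (TMM-normalised, linear axis from 0) of Ube3a, its antisense transcripts and Herc2 in 4 WT and 5 Ube3a2X female hypothalamus libraries. Points are libraries, the open diamond is WT 471 and bars are medians. The Ube3a2X libraries lie at 1086 to 1785 CPM for Ube3a, above all WT libraries, and the groups overlap for the other 3 genes.

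The effect on Ube3a was next set against the other hypothalamic and PFC libraries. In male hypothalamus, Ube3a was at 291 to 339 CPM (median 325) in WT and at 802 to 1782 CPM (median 1097) in Ube3a2X mice. In female PFC it was at 188 to 272 CPM (median 229) in WT and at 813 to 2313 CPM (median 1457) in Ube3a2X mice. The genotype effect did not differ detectably between the sexes (male minus female effect -0.40 on the log2 scale, SE 0.40, edgeR adjusted p = 0.998) or between the tissues (PFC minus hypothalamus 0.32, SE 0.40, edgeR adjusted p = 0.974). With 1 female hypothalamus library left out, the difference ran from -0.58 (without WT 262) to -0.20 (without WT 471) for the sexes and from 0.11 (without WT 262) to 0.58 (without WT 471) for the tissues.

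Across the transcriptome, Ube3a was the only call. Of 12302 genes tested, 1 (0.00813%) passed an adjusted p of 0.05 in edgeR, with and without WT 471, and the next smallest adjusted p was 0.655 with all 9 libraries. DESeq2 called 3 genes (0.0244%): Ube3a and the pseudogenes Gm13456 and Rpl9-ps6. Without WT 471, DESeq2 called 2 (0.0163%), Ube3a and Zbtb16, which is named here by this call. An unadjusted p under 0.05 was found for 271 genes (2.2%), 45 higher (0.366%) and 226 lower (1.84%) in Ube3a2X females. Without WT 471 there were 252 (2.05%), of which 150 were higher (1.22%) and 102 lower (0.829%). With no effect at all, a fraction of 0.05 of the genes would pass this threshold on average, and both shares were smaller. The overlap was 72 genes, 26.6% of the first set and 28.6% of the second. The split between directions was not stable. Higher genes were 16.6% of those at that p with all 9 libraries and 59.5% without WT 471, but 42.9% (84 of 196) when the filters were also applied again. With all 9 libraries they were 52.0% (249 of 479) once the trend with GC content and gene length was taken out of the counts, 44.7% (318 of 712) with RIN and 2 surrogate variables, and 4.47% (14 of 313) without RIN in the fit. Without WT 262 they were 37.6% (1012 of 2689). No gene but Ube3a is described below as changed. Where 2 values are given for another gene, the first is its log2 fold change with all libraries and the second that without WT 471, and the adjusted p of these genes in edgeR was 0.655 or more in both fits. The median absolute log2 fold change was 0.147 with all libraries and 0.0504 without WT 471, and the median SE went from 0.144 to 0.0901.

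**Figure D2:**
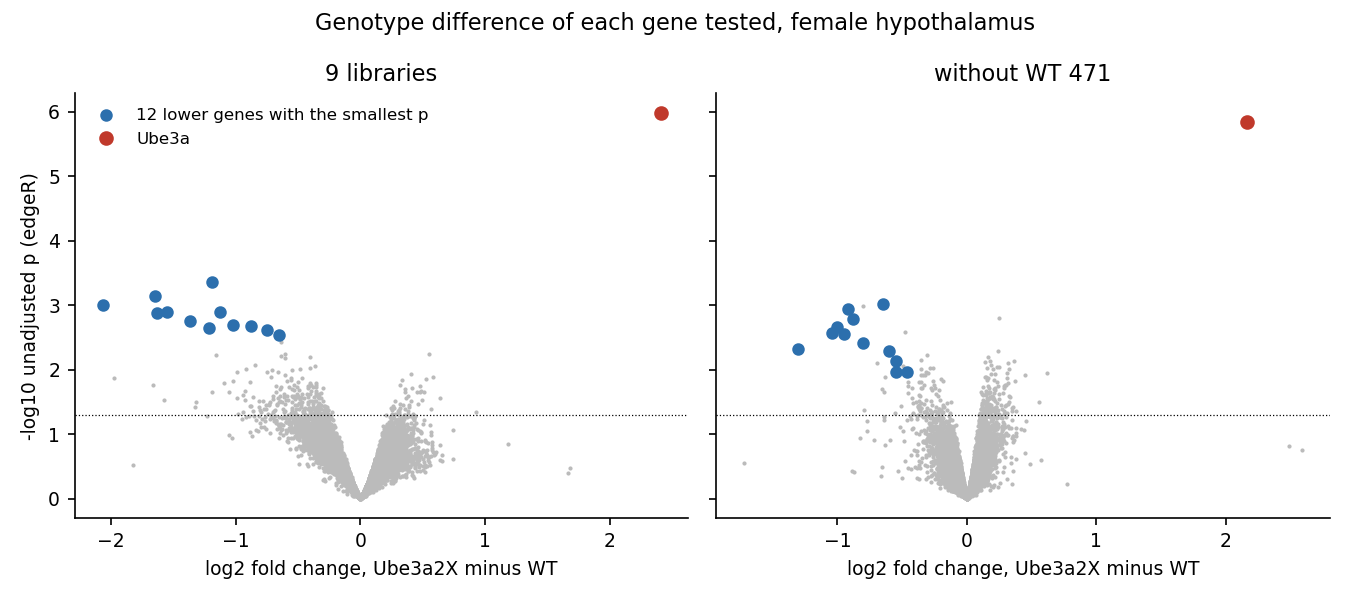
Each point is a gene, with the log2 fold change (Ube3a2X minus WT) on the x axis and -log10 of the unadjusted edgeR p on the y axis, with 9 libraries at the left and without WT 471 at the right. The dotted line marks an unadjusted p of 0.05. Ube3a lies alone at 2.41 and 2.16, and the 12 lower genes with the smallest p, all counted as pseudogenes, keep negative values in both panels.

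Among genes with a log2 fold change below 0, the 12 with the smallest p were all counted as pseudogenes, 5 of them named as copies of ribosomal protein genes. A gene was counted as a pseudogene by its annotated class or by a name ending in -ps, with or without a number. Rpl37rt, 1 of the 12, was added to them by name. Reads of such copies are hard to tell from those of the near-identical parent gene, so their counts are uncertain. Gm13456 was at 5.67, 7.08, 3.98 and 12.6 CPM in WT 262, 398, 410 and 471, and at 2.89, 3.42, 2.47, 3.22 and 2.57 CPM in Ube3a2X 272, 417, 420, 462 and 468. Every WT library lay above every Ube3a2X library (log2 fold change -1.19, SE 0.24, edgeR adjusted p = 0.655). Without WT 471 the log2 fold change was -0.91 (SE 0.20). Rpl9-ps6 was at 1.91, 4.25, 3.12 and 16.8 CPM in WT 262, 398, 410 and 471, and at 1.31 to 1.63 CPM in the Ube3a2X libraries, again without overlap (-1.65, SE 0.36, and -1.002, SE 0.24, without WT 471). Gm14303 was at 2.32, 8.59, 4.83 and 30.4 CPM in the WT libraries in the same order and at 1.59 to 2.27 CPM in the Ube3a2X libraries (-2.07, SE 0.47, and -1.31, SE 0.35, without WT 471). WT 471 was the highest library for all 3, and WT 262 came closest to the Ube3a2X range for Rpl9-ps6 and Gm14303.

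The other 9 were Rpl14-ps1, Gm9385, Rpl37rt, Gm12191, Rpl19-ps11, Gpx4-ps2, Rpl10a-ps1, Gm28661 and Gm4366, with log2 fold changes from -1.63 (Rpl37rt) to -0.66 (Gm4366), and from -1.04 (Rpl37rt) to -0.46 (Gm4366) without WT 471. All 12 had an unadjusted p under 0.05 without WT 471, and 11 of the 12 did not overlap between the groups, with or without that library. Over all genes tested, 75 (0.61%) were lower without overlap with 9 libraries and 152 (1.24%) without WT 471. The 12 were chosen for their p, so these counts describe them and do not test them. Parent genes lay above 0 without WT 471: Rpl9 had a log2 fold change of 0.11, Rpl14 0.05, Rpl37 0.09, Rpl19 0.06 and Rpl10a 0.13, with overlapping groups. With all libraries these 5 lay between -0.34 (Rpl14) and -0.20 (Rpl9). Pseudogenes made up 180 of the 12302 genes tested (1.46%), 25 of the 226 lower genes (11.1%) and 2 of the 45 higher genes (4.44%). Without WT 471 they made up 22 of the 102 lower genes (21.6%) and 2 of the 150 higher genes (1.33%). The median log2 fold change over all 180 pseudogenes was -0.08, and -0.05 without WT 471, against -0.02 and 0.01 over all genes tested. In males, Gm13456 was at 3.69 to 6.50 CPM in WT and 4.16 to 6.04 CPM in Ube3a2X hypothalamus. The male effect exceeded the female effect by 1.21 on the log2 scale for Gm13456 (unadjusted p under 0.05) and by 2.49 for Gm14303 (unadjusted p under 0.05), and neither passed adjustment (edgeR adjusted p = 0.998).

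The higher genes with the smallest p after Ube3a included genes of myelinating glia, and none was called. Gjc3, the connexin-29 gene of myelinating glia, was at 57.0, 60.8, 63.1 and 42.8 CPM in WT 262, 398, 410 and 471, and at 68.7, 65.2, 72.2, 70.0 and 75.9 CPM in Ube3a2X 272, 417, 420, 462 and 468. All Ube3a2X libraries exceeded all WT libraries (log2 fold change 0.33, SE 0.12, edgeR adjusted p = 0.655), also without WT 471 (0.24, SE 0.07). Ugt8a, the enzyme that makes the myelin lipid galactosylceramide, was at 68.4, 75.4, 70.2 and 50.2 CPM in the WT libraries and at 86.5, 72.9, 90.6, 82.2 and 88.9 CPM in the Ube3a2X libraries. Ube3a2X 417 lay within the WT range (0.35, SE 0.13, and 0.22, SE 0.07, without WT 471).

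Foxa1, a forkhead transcription factor of midbrain and posterior hypothalamic neurons, was at 3.26, 3.70, 5.46 and 4.78 CPM in WT 262, 398, 410 and 471, and at 5.93, 5.17, 6.49, 5.72 and 7.53 CPM in Ube3a2X 272, 417, 420, 462 and 468. Only Ube3a2X 417 fell inside the WT range (0.53, SE 0.18, edgeR adjusted p = 0.655). Its value was larger without WT 471 (0.62, SE 0.20). Lmx1a, which is expressed with Foxa1 in such neurons and was chosen after its values were seen, was at 5.43 to 7.86 CPM in WT and 5.68 to 9.96 CPM in Ube3a2X libraries (0.39, SE 0.18, and 0.36, SE 0.20, without WT 471). Its relative Lmx1b, chosen after its values were seen, had 0.35 (SE 0.20) and 0.22 (SE 0.21), and 0.57 without WT 410. The remaining higher genes were Spink10 (a protease inhibitor, 0.55 and 0.45), Zxdb (a zinc finger protein, 0.41 and 0.29), Acp7 (an acid phosphatase, 0.58 and 0.37), Ptges3-ps (0.32 and 0.33), Gpr21 (an orphan receptor, 0.48 and 0.28), Snora15 (a small nucleolar RNA, 0.41 and 0.36), Pcdhb11 (a clustered protocadherin, 0.49 and 0.27) and Ttc6 (0.51 and 0.38) on the log2 scale, with all libraries and without WT 471. Of the 12 higher genes with the smallest p, Ube3a included, 5 did not overlap between the groups and 11 had a p under 0.05 without WT 471. Over all genes, 66 (0.536%) were higher without overlap with 9 libraries and 138 (1.12%) without WT 471. Zxdb was at 15.1 to 24.3 CPM in WT and 22.8 to 28.8 CPM in Ube3a2X females, and its genotype effect was lower in males by 0.52 on the log2 scale (unadjusted p under 0.05, edgeR adjusted p = 0.998).

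Hypothalamic peptide genes had medians below 0 with all 9 libraries and medians nearer to 0 without WT 471, and none was called. Of 13 tested feeding and arousal peptide genes, all 13 had a log2 fold change below 0 (52.7% of all genes did), 4 were lower at an unadjusted p under 0.05 (1.84% of all genes were), none was higher, and the median was -0.46. Without WT 471 none had such a p, 6 were above 0 and 7 below, and the median was -0.05. Of 17 tested neuroendocrine and social peptide genes, 14 were below 0 (52.7% of all genes), 4 were lower at that p (1.84% of all genes) and none was higher, with a median of -0.32. Without WT 471 the median was -0.05 and 1 gene, Avp, was lower at that p (0.829% of all genes). WT 471 had 2298 CPM summed over the feeding peptides, against 891 to 954 CPM in the other WT and 803 to 938 CPM in the Ube3a2X libraries.

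Avp encodes vasopressin, the antidiuretic hormone of magnocellular and suprachiasmatic neurons. It was at 72.9, 113, 124 and 442 CPM in WT 262, 398, 410 and 471, and at 59.2, 44.9, 83.5, 85.4 and 61.4 CPM in Ube3a2X 272, 417, 420, 462 and 468. WT 262 lay within the Ube3a2X range and the other 3 WT libraries lay above it. Its log2 fold change of -1.16 had an SE of 0.34 (adjusted p = 0.655 in edgeR), and it was -0.56 (SE 0.24) without WT 471. In male hypothalamus Avp was at 64.8 to 156 CPM in WT and 53.8 to 147 CPM in Ube3a2X mice, and the sex difference of the effect was 1.02 on the log2 scale (SE 0.60).

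Oxt, the gene of oxytocin, which acts in birth, lactation and social behavior, was at 13.6, 88.5, 77.3 and 193 CPM in WT 262, 398, 410 and 471, and at 23.2, 13.7, 56.1, 37.4 and 35.8 CPM in the Ube3a2X libraries. WT 262 was the lowest library of all 9 (log2 fold change -1.32, SE 0.54, and -0.66, SE 0.80, without WT 471). Hcrt, the gene of the arousal peptide orexin, had the same low library, with 8.78, 84.5, 42.0 and 147 CPM in WT 262, 398, 410 and 471 and 11.5 to 46.0 CPM in the Ube3a2X libraries (-1.33, SE 0.57, and -0.89, SE 0.92, without WT 471). Sst, the gene of the growth hormone inhibitor somatostatin, was at 48.6, 105, 98.8 and 233 CPM in the same WT libraries and at 44.7 to 77.1 CPM in the Ube3a2X libraries (-0.88, SE 0.31, and -0.39, SE 0.27, without WT 471).

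Gal, encoding galanin, had log2 fold changes of -0.59 (SE 0.23) with all libraries and -0.20 (SE 0.15) without WT 471. Npy, the appetite-stimulating neuropeptide Y gene, had -0.60 (SE 0.24) and -0.29 (SE 0.21). Ghrh, encoding growth hormone-releasing hormone, had -0.54 (SE 0.21) and -0.31 (SE 0.18), and Tac2, encoding neurokinin B, had -0.42 (SE 0.17) and -0.21 (SE 0.13). All 8 of these genes were also below 0 in each of the 26 alternative settings. The same held for Pomc, Cartpt, Nts and Vip, and for the secretory genes Vgf, Chga and Chgb, whereas Pmch and Agrp were above 0 in 5 settings each. These settings share most of their libraries, so a constant sign is a description only. Other peptide genes had values nearer to 0 without WT 471, among them Pmch (-0.26 and 0.01), Pomc, the melanocortin precursor (-0.45 and -0.05), Agrp, a melanocortin antagonist (-0.46 and 0.07), and Cartpt (-0.48 and -0.07). WT 262, the lowest WT library for Avp, Oxt, Hcrt and Sst, had the lowest AT dropout, a measure of reads lost in AT-rich sequence, at 18.3 against 18.9 to 23.4 in the other libraries, and the part of this measure in the peptide values was not tested. Across all genes the log2 fold change had a Pearson r of -0.413 with GC content, given as a description over genes measured in the same 9 libraries. When an offset took out how each library's counts followed GC content and gene length, the median of the feeding peptides was -0.24 and that of the neuroendocrine peptides -0.12.

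**Figure D3:**
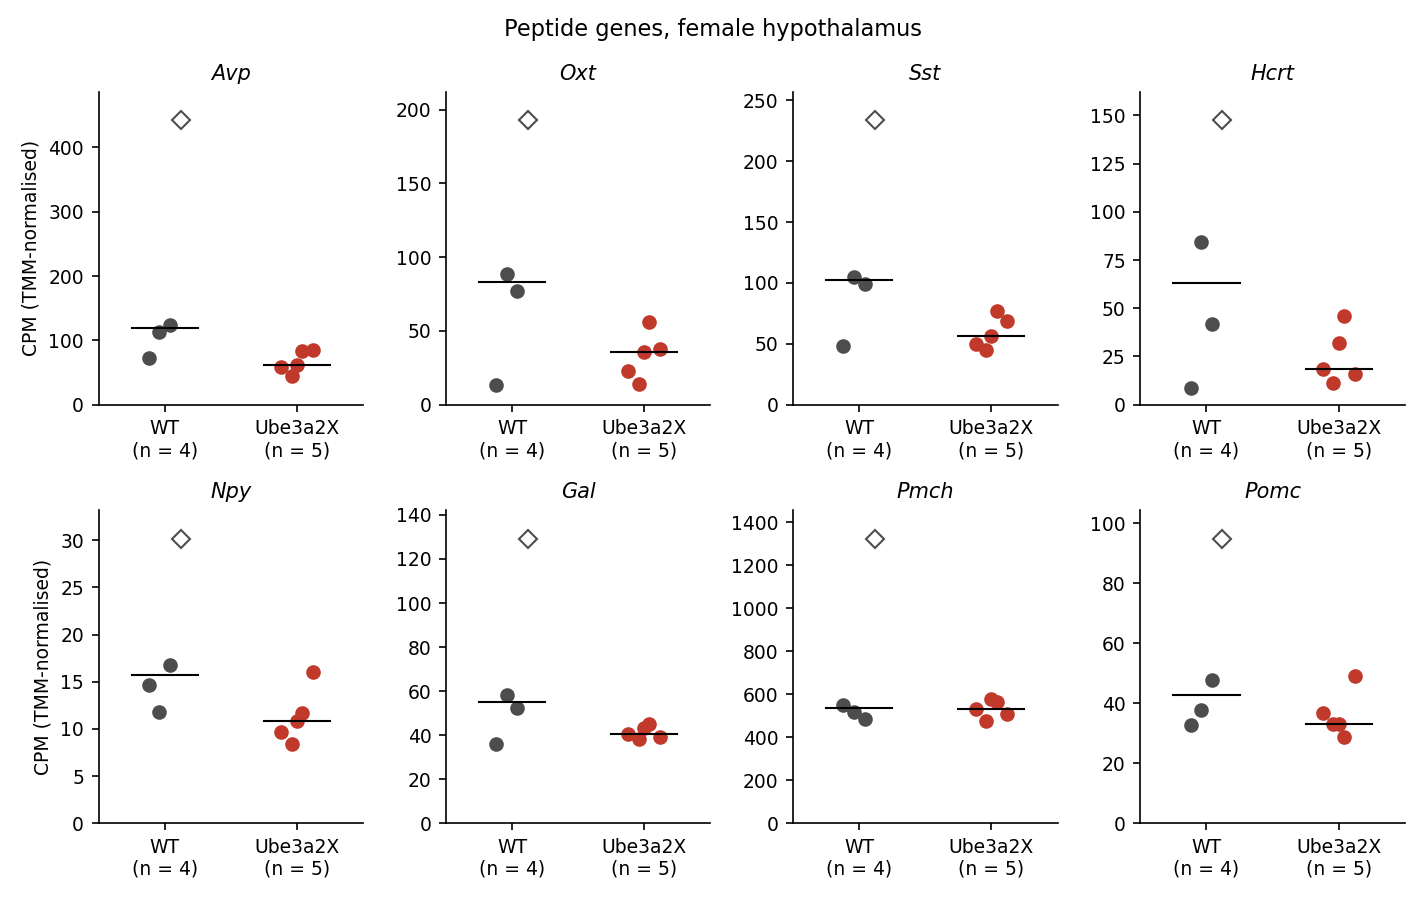
CPM (TMM-normalised, linear axes from 0) of 8 peptide genes in 4 WT and 5 Ube3a2X female hypothalamus libraries. Points are libraries, the open diamond is WT 471 and bars are medians. WT 471 is the highest library for each gene, and for Avp 3 of 4 WT libraries lie above the 44.9 to 85.4 CPM of the Ube3a2X libraries.

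Receptors and transcription factors of the hypothalamus gave no call. Of 14 feeding receptor genes and 14 neuroendocrine and social receptor genes tested, none had a p under 0.05, with medians of 0.05 and 0.06 (-0.00 and -0.04 without WT 471). Of 27 hypothalamic transcription factor genes, 3 were lower at that p (1.84% of all genes were) and none higher, with a median of -0.17, and none remained at that p without WT 471 (median -0.05). They were Dlx2 (-0.54 and -0.27) and Dlx1 (-0.37 and -0.21), which specify GABAergic neurons, and Lhx2 (-0.30 and -0.21), which patterns the forebrain and tanycytes. Dlx5, of the GABAergic neuron markers, had -0.61 (SE 0.23, and -0.34, SE 0.23, without WT 471). The 5 tested GABAergic markers had a median of -0.18 with all libraries and without WT 471. It was -0.28 without WT 410 and -0.10 without WT 262. Of these 5 markers, 2 were above and 3 below 0 with all libraries, and 1 was above and 4 below without WT 471. The CPM summed over all 6 listed markers overlapped between the groups. This sum was 1251 in WT 471, 1486 to 1828 in the other WT libraries and 1423 to 1695 in the Ube3a2X libraries.

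Steroid hormone genes were of interest because UBE3A coactivates their receptors. Of 17 tested receptors, coactivators and enzymes, 1 was lower at an unadjusted p under 0.05 (1.84% of all genes were) and none higher, with a median of 0.02 (-0.03 without WT 471). Esr1, the estrogen receptor alpha gene, was at 40.9, 37.7, 28.6 and 27.3 CPM in WT 262, 398, 410 and 471, and at 31.3, 31.0, 36.0, 37.3 and 29.0 CPM in Ube3a2X 272, 417, 420, 462 and 468. The groups overlapped throughout (log2 fold change -0.04, SE 0.15, and -0.12, SE 0.13, without WT 471). Pgr, the progesterone receptor gene, was at 60.2 to 65.2 CPM in 3 WT libraries, 24.996 in WT 471 and 53.0 to 74.2 CPM in Ube3a2X libraries (0.32, SE 0.22, and 0.01 without WT 471). Esr2, the estrogen receptor beta gene, was too low to be tested, at 0.698 to 1.14 CPM in WT and 0.797 to 1.21 CPM in Ube3a2X libraries. The gene at that p was Tspo, the mitochondrial translocator protein of steroid-producing cells and glia (-0.37, SE 0.17, and -0.16, SE 0.13, without WT 471).

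Genes of ciliated ependymal cells were measured in 2 lists, both with medians below 0 with all libraries and without WT 471, and no gene was called. The median of the longer list, of motile cilia genes, was not below 0 without WT 262 (0.00052). Of 11 tested tanycyte and ependymal markers, 3 were lower at an unadjusted p under 0.05 (1.84% of all genes were) and none higher, with a median of -0.27, and without WT 471 1 was lower (0.829% of all genes), with a median of -0.08. Without WT 262 the median was -0.36. Ccdc153, a coiled-coil gene of ciliated cells, was at 10.3, 10.6, 9.41 and 26.1 CPM in WT 262, 398, 410 and 471, and at 7.09, 8.25, 7.71, 8.44 and 7.98 CPM in Ube3a2X 272, 417, 420, 462 and 468. All WT libraries exceeded all Ube3a2X libraries (log2 fold change -0.66, SE 0.22, edgeR adjusted p = 0.655, and -0.31, SE 0.09, without WT 471). Foxj1, the master transcription factor of motile cilia, had -0.42 (SE 0.18) and -0.19 (SE 0.14), with overlapping groups, and Tmem212, an ependymal membrane protein, had -0.41 (SE 0.18) and -0.16 (SE 0.11).

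Of these 3 genes, only Ccdc153 kept an unadjusted p under 0.05 without WT 471. A further list of 40 motile cilia and axoneme genes was written after the values were seen, so its counts are a description only. Of the 38 tested, 5 were lower without overlap between the groups (0.61% of all genes were), and 9 without WT 471 (1.24% of all genes). With all libraries, 6 were lower at an unadjusted p under 0.05 (1.84% of all genes were) and none higher. Below 0 were 29 (52.7% of all genes), and the median was -0.11. Without WT 471, 9 were lower at that p (0.829% of all genes) and none higher, all 38 were below 0 (47.2% of all genes were), and the median was -0.17. Without WT 262, 19 were below and 19 above 0 (51.2% of all genes were below). Among those that went from below 0 without WT 471 to above 0 without WT 262 were Hydin, a gene of the central pair (-0.26 without WT 471 and 0.37 without WT 262), and the dynein heavy chain gene Dnah9 (-0.22 without WT 471 and 0.19 without WT 262). The cadherin genes Cdhr3 and Cdhr4 were also named after their values were seen. Cdhr3 was at 10.2, 8.90, 7.70 and 10.1 CPM in WT 262, 398, 410 and 471, and at 7.47, 7.25, 6.75, 6.72 and 7.32 CPM in Ube3a2X 272, 417, 420, 462 and 468 (log2 fold change -0.36, SE 0.11, and -0.35, SE 0.10, without WT 471). Cdhr4 was at 8.03, 8.91, 7.43 and 8.05 CPM in WT and at 5.86, 6.79, 5.93, 6.77 and 5.39 CPM in Ube3a2X libraries (-0.41, SE 0.12, and -0.36, SE 0.11). Neither overlapped between the groups, and WT 471 lay among the other WT libraries for both. With each library left out in turn, the log2 fold change was -0.43 to -0.29 for Cdhr3 and -0.48 to -0.36 for Cdhr4.

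Drc7, a subunit of the dynein regulatory complex, was at 6.79 to 7.37 CPM in WT and 4.80 to 6.45 CPM in Ube3a2X libraries (-0.29, SE 0.12, and -0.20, SE 0.10, without WT 471). The axonemal dynein subunit gene Dnali1 had -0.35 (SE 0.14) and -0.18 (SE 0.09), and Cfap206, a radial spoke protein gene, had -0.32 (SE 0.12) and -0.23 (SE 0.10), both without overlap. Some genes of the axoneme were low in WT 471 and had an unadjusted p under 0.05 without it but not with it, among them Dnah5, the outer-arm dynein heavy chain (0.05 and -0.29, SE 0.24 and 0.09), which was at 0.27 without WT 262. Cfap73 had -0.24 and -0.48 (SE 0.21 and 0.12), and Spata18, a mitochondrial quality control gene of the same list, had -0.05 and -0.56 (SE 0.39 and 0.16). Without WT 262 Cfap73 was at -0.03 and Spata18 at 0.20, and Spata18 was also above 0 without WT 398 (0.15) and without Ube3a2X 417 (0.22). Summed over the 38 genes, WT libraries were at 570, 526, 531 and 523 CPM in 262, 398, 410 and 471, and Ube3a2X libraries at 444, 492, 448, 531 and 477 CPM in 272, 417, 420, 462 and 468. Ube3a2X 462 reached the WT range and the other 4 lay below it. In males the sums were 452 to 562 CPM in WT and 451 to 591 CPM in Ube3a2X hypothalamus. Markers of choroid plexus, the other ciliated tissue of the ventricles, summed to 48.9 to 59.8 CPM in WT and 51.7 to 56.2 CPM in Ube3a2X libraries. How much ventricular wall each dissection held was not measured, and its part in these values was not tested.

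**Figure D4:**
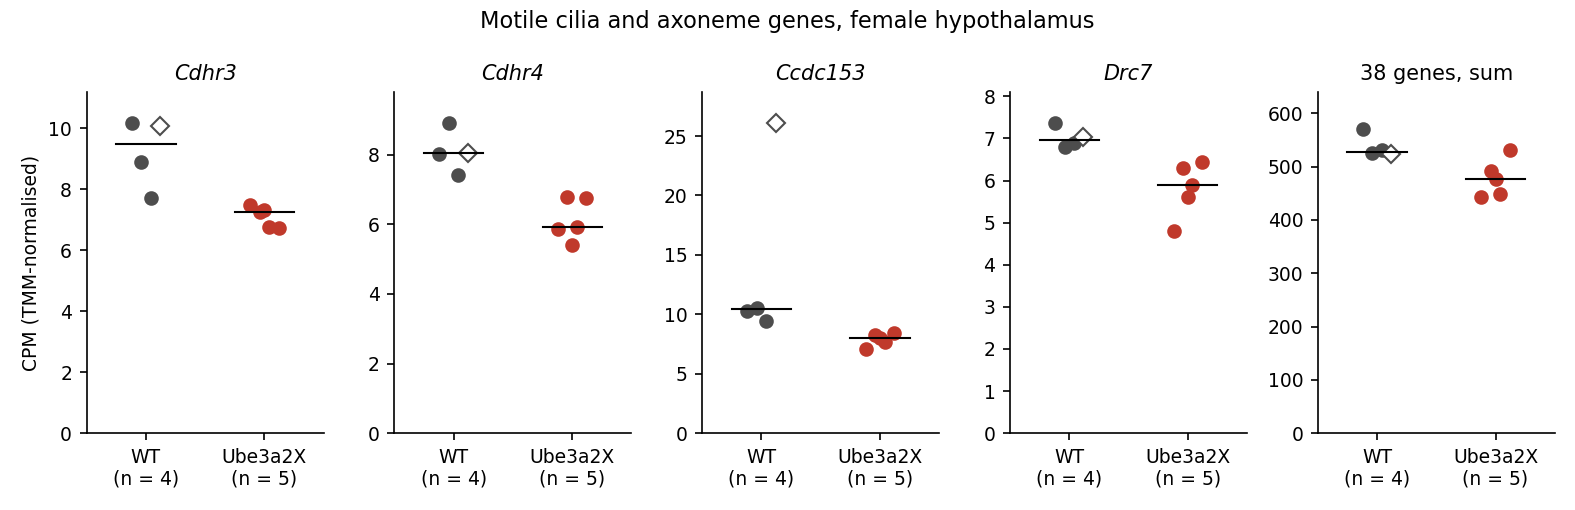
CPM (TMM-normalised, linear axes from 0) of 4 genes of ciliated cells and the sum over 38 motile cilia and axoneme genes in 4 WT and 5 Ube3a2X female hypothalamus libraries. Points are libraries, the open diamond is WT 471 and bars are medians. Each of the 4 genes is lower in all 5 Ube3a2X libraries than in all 4 WT libraries, and the sum overlaps through Ube3a2X 462. The 4 genes were drawn with their values known, so their separation is a description only. Of the 38 summed genes, 5 were lower without overlap between the groups (0.61% of all genes were).

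Oligodendrocyte genes gave no call, and the sign of their median depended on the WT libraries included. All 13 markers were tested: with all libraries 1, Ugt8a, was higher at an unadjusted p under 0.05 (0.366% of all genes were), none was lower, and the median was 0.03. Without WT 471, 2 were higher at that p (1.22% of all genes), all 13 were above 0 (52.8% of all genes were) and the median was 0.13. Without WT 262, 7 of the 13 were below 0 and the median was -0.05. The summed CPM overlapped, at 4008 to 5218 in WT 262, 398 and 410, 6518 in WT 471 and 4681 to 5664 in the Ube3a2X libraries. Mbp, a myelin protein gene, was at 1276 to 2228 CPM in WT and 1525 to 1978 CPM in Ube3a2X libraries (-0.07, and 0.06 without WT 471). Cd9, a tetraspanin of myelinating glia named after its values were seen, was at 42.2 to 48.1 CPM in WT and 48.9 to 52.7 CPM in Ube3a2X libraries, without overlap (0.21, SE 0.09, and 0.25, SE 0.06, without WT 471).

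The other cell type markers were measured for comparison. None of 10 astrocyte, 8 oligodendrocyte precursor, 6 glutamatergic or 5 pan-neuronal markers tested had an unadjusted p under 0.05 in either fit, with medians of -0.04, 0.08, 0.09 and -0.07, and of -0.01, 0.01, -0.02 and 0.03 without WT 471. Of 10 microglial markers 1 was lower at that p (1.84% of all genes were), the complement component gene C1qc (-0.51, and -0.21, SE 0.18, without WT 471), and the list had a median of -0.19, and -0.04 without WT 471. Of 10 endothelial and mural markers 1 was lower at that p, Ly6c1 (-0.32, and -0.20, SE 0.10), while 5 were above and 5 below 0, with a median of 0.01, and 0.05 without WT 471. Pituitary transcripts varied between dissections: the growth hormone gene Gh was at 1212 CPM in WT 471 and at 0.0146 to 186 CPM elsewhere, and the prolactin gene Prl at 4059 CPM against 2.20 to 793 CPM. Blood markers summed to 351 CPM in WT 471 and to 75.1 to 130 CPM elsewhere. Summed pituitary markers were 74.9 to 197 CPM in the other WT libraries and 143 to 1034 CPM in the Ube3a2X libraries. The part of pituitary or blood RNA in the gene values of WT 471 was not tested.

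The pathways nearest to UBE3A function gave no call beside Ube3a, and their medians changed sign without WT 471. Of 14 tested UBE3A substrates and partners, none had an unadjusted p under 0.05, and the median was -0.05 (0.05 without WT 471). All 28 proteasome subunit genes tested were below 0 with all libraries (median -0.17) and above 0 without WT 471 (median 0.08, 1 higher at that p, against 1.22% of all genes). All 22 HECT ligase genes tested, Ube3a not counted among them, were above 0 with all libraries (47.3% of all genes were), with a median of 0.23 and none at that p. Without WT 471, 8 were above and 14 below 0 (median -0.01). Without WT 262 all 22 were above 0 (median 0.38). Cytosolic ribosomal protein genes, 77 tested, were all below 0 (median -0.28, with Rpl27a at that p, against 1.84% of all genes) and had a median of 0.06 without WT 471, with 4 higher at that p (1.22% of all genes). Their summed CPM was 31614 in WT 471. In the other 8 libraries it lay between 11319 and 12436. Oxidative phosphorylation subunit genes, 71 tested, went from a median of -0.30 to 0.04.

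Synaptic and signalling genes had no unadjusted p under 0.05 in any of 6 lists with or without WT 471: ionotropic (15 tested) and metabotropic (6) glutamate receptors, GABA-A receptor subunits (11), postsynaptic scaffolds (24), mTOR and ERK signalling (25), and voltage-gated channels (39). Their medians were 0.07 to 0.17 with all libraries and -0.03 to 0.02 without WT 471. Without WT 262 they were larger, at 0.12 (postsynaptic scaffolds) to 0.24 (GABA-A receptor subunits). The 18 autism genes that the study names, which were chosen on libraries of this series, had medians of 0.15 and -0.00, and 31 imprinted genes outside the locus had -0.02 and -0.03, without a member at that p in either fit. Of 21 cholesterol genes, 11 were above and 10 below 0 with all libraries, with medians of 0.05 and 0.03, and 1 was higher at that p in each fit (0.366% and 1.22% of all genes were). It was Hsd17b7, an enzyme of cholesterol and estradiol synthesis (0.40, SE 0.16, and 0.19, SE 0.08, without WT 471), at 15.03 to 16.4 CPM in 3 WT libraries, 8.40 in WT 471 and 16.4 to 19.8 CPM in the Ube3a2X libraries. Of 19 immediate early genes 1 was lower at that p (1.84% of all genes were), Jund (-0.88, and -0.28 without WT 471). The median of these genes was -0.08 with 14 below 0, and 0.13 with 14 above 0 without WT 471. It was -0.22 without Ube3a2X 468 and -0.21 without WT 262. Of 18 heat shock and unfolded protein response genes 1 was lower at that p, Hspa1a (-0.76, and -0.17 without WT 471), and the median was -0.12 with 17 below 0, and 0.07 with 14 above 0 without WT 471. None of 18 circadian clock genes had such a p with all libraries (median 0.02, 7 below 0). Without WT 471, 15 were below 0, the median was -0.04 and 1 was lower at that p (0.829% of all genes), the period gene Per2 (-0.08, SE 0.12, with all libraries and -0.19, SE 0.08, without WT 471).

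**Figure D5:**
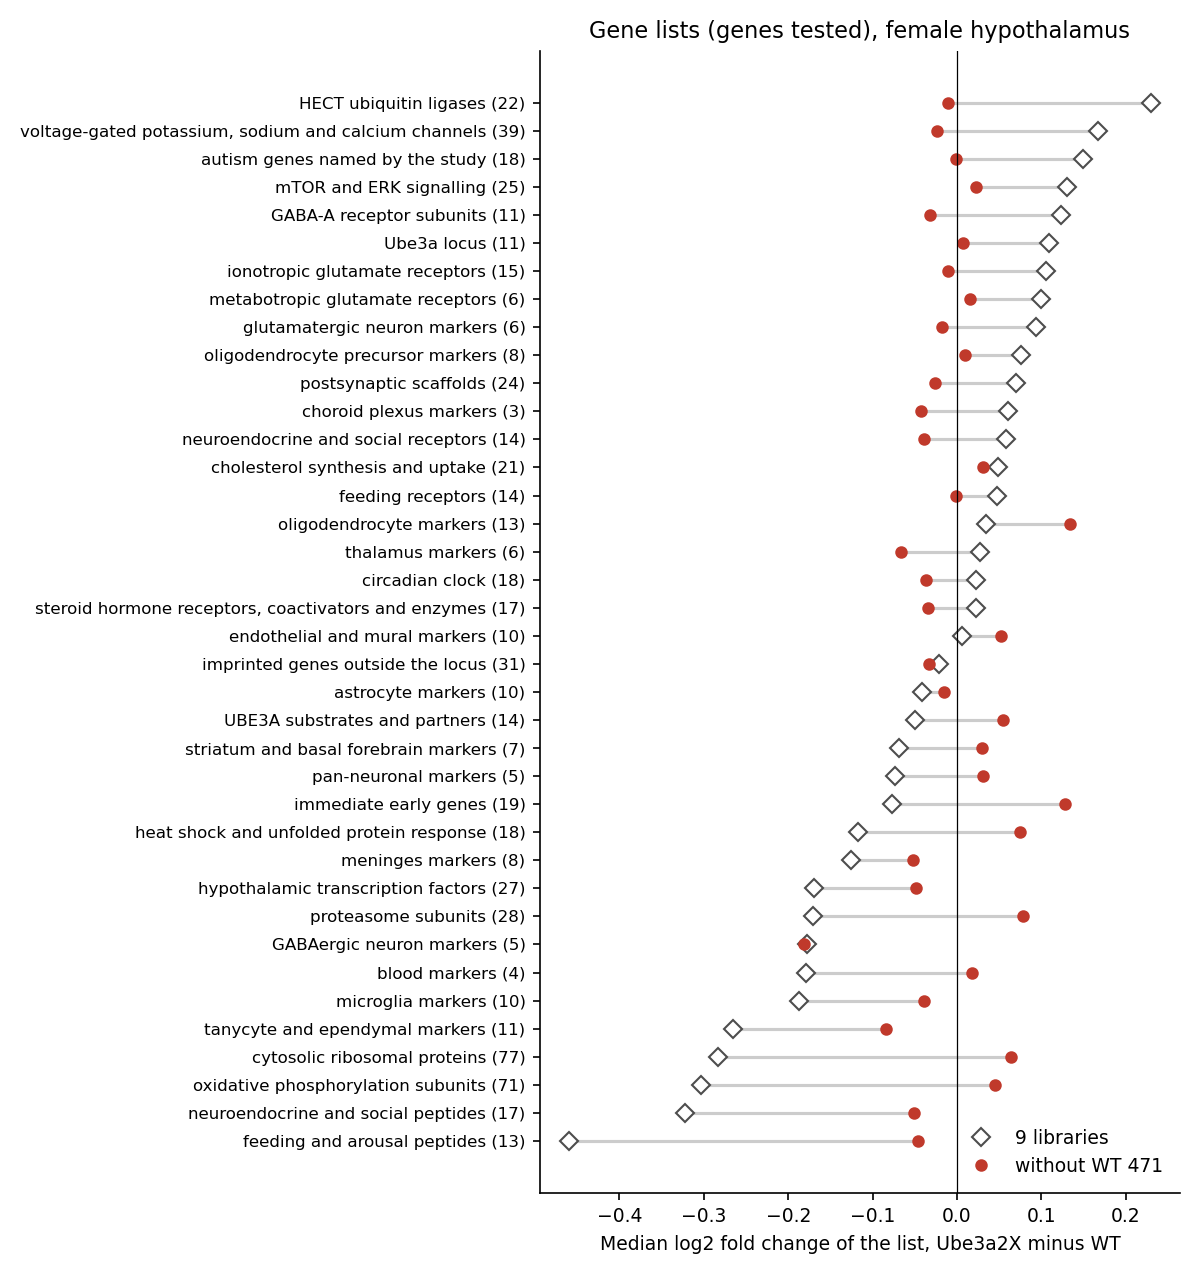
Median log2 fold change (Ube3a2X minus WT, x axis) of the genes tested in each list, with the number tested in parentheses, in all 9 libraries (open diamonds) and without WT 471 (filled circles). Pituitary markers and the lists written after the values were seen are not drawn. The medians run from -0.46 (feeding and arousal peptides) to 0.23 (HECT ligases) with all libraries and lie closer to 0 for most lists without WT 471.

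The genotype effect was also compared with that in males and in the PFC for all genes. In the 18 hypothalamus libraries no gene passed an adjusted p of 0.05 for a difference between the sexes, and 131 of 11869 genes (1.1%) had an unadjusted p under 0.05 in edgeR. In the 19 female libraries no gene passed for a difference between hypothalamus and PFC, and 579 of 10800 genes (5.36%) had an unadjusted p under 0.05. No difference seen in female hypothalamus can therefore be called particular to females or to this tissue at this number of mice.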

How the data were processed

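Libraries of stranded mRNA were sequenced by the authors, who mapped reads to GRCm38 using STAR and summarised them per gene using featureCounts. The deposited counts are not normalized. Quality measures were deposited by the authors from Picard: RIN and AT dropout as a score, shares of bases and reads as a fraction, coverage variation and end bias as a ratio, and aligned reads as a count. Fractions were converted to percent. Of 54165 genes, 53905 were found in GENCODE vM21, used for coordinates, class and GC content.

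The analysis was run in R 4.3.3. A gene was dropped when 2 or more of the 9 libraries had under 100 reads (14473 kept), and of those kept, the least variable 15% on log2-CPM (prior count 2) were dropped too, leaving 12302. edgeR 4.0.16 (TMM, robust quasi-likelihood test) was fitted with RIN and genotype, with Benjamini-Hochberg adjustment over all genes tested. The SE given for edgeR was derived as the absolute log2 fold change divided by the square root of the F statistic of that test. Interactions with sex and tissue used the same model on 18 and 19 libraries. Fits without WT 471 kept the same 12302 genes unless stated. Library measures were compared by exact permutation (126 arrangements, smallest p 0.0159), and the difference in means had no p under 0.05 for any of the 10, although the groups did not overlap in depth. Alternatives used limma 3.58.1 (voom), DESeq2 1.42.0, sva 3.50.0 and other filters, and the fitting was tested on simulated data.

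Named are Ube3a, all calls, in each direction the 12 genes of smallest p, Esr1, Esr2, Pgr and the members of each list with the smallest p, with the measured members of the peptide, locus and steroid lists. Some genes that the rule names are not reported here. Genes outside this rule are marked in the text; parent genes of pseudogenes, and Slc17a7, Gh and Prl as tissue checks, were also named. Members and lists were chosen with earlier results of these data known. Within groups, squared differences between libraries were 16.3 to 798 times the sampling noise over 16 pairs, and no 2 libraries were counted as 1.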

Additional observations from a re-analysis of the deposited data

Results flagged for a closer look

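In groups of 4 and 5, a library was set apart where its gap to the nearest other library was large for the range of its group, and chance alone does this in about 1 of 20 groups. Of 262 group values checked, 37 were set apart, 28 in WT, all of them library 471, and 9 in Ube3a2X.

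For WT 471 these were the library measures of 39.0 M counted reads, 37.5% coding bases and 53.7% bases in untranslated regions. In the Ube3a locus they were Snhg14 (38.3 CPM), Snrpn (1207 CPM) and Herc2 (129 CPM), and among pseudogenes Rpl9-ps6 (16.8 CPM), Rpl14-ps1 (6.77 CPM), Gm9385 (13.6 CPM) and Rpl10a-ps1 (8.97 CPM). Peptide and secretory genes were Avp (442 CPM), Pmch (1322 CPM), Cartpt (156 CPM), Npvf (33.5 CPM), Tac1 (172 CPM), Penk (179 CPM) and Pcsk2 (225 CPM). Genes of ciliated and ventricular cells were Ccdc153 (26.1 CPM), Tmem212 (12.1 CPM), Rarres2 (37.3 CPM), Cfap126 (16.3 CPM) and Dnali1 (10.8 CPM). The others were Acp7 (0.564 CPM), Pgr (24.996 CPM), Hsd17b10 (36.6 CPM), Hsd17b7 (8.40 CPM), Gh (1212 CPM) and Prl (4059 CPM).

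In the Ube3a2X group, library 420 had 381 M counted reads and 27.7 CPM of Tac2, library 462 had 97.7% of reads on the expected strand and 1.89 CPM of Rpl14-ps1, and library 468 had a coverage variation of 0.423 and 49.5 CPM of Th, the dopamine synthesis enzyme gene. Library 272 had 18.95 CPM of Atp10a, and library 417 had 2.74 CPM of Gpx4-ps2 and 2.17 CPM of Spata18.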

How the results depend on the processing

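Ube3a was above 0 with an unadjusted p under 0.05 in all 26 alternative settings (log2 fold change 2.14 to 2.64), and its adjusted call depended on the fit. The count of calls was 0 with genotype alone (Ube3a 2.38), with RIN and 2 surrogate variables (2.18), with RIN and a quality component (2.31), with filterByExpr (2.44), without the variance filter (2.42) and, in fits chosen after seeing the data, without WT 471 with the filters applied again (2.16) or with the GC and length trend removed (2.17). It was 3 in DESeq2 and 2 in DESeq2 without WT 471. Leaving out 1 library gave 0 or 1 call and a Ube3a log2 fold change of 2.16 to 2.64; the call was lost without WT 398 (adjusted p = 0.103 in edgeR), WT 410 (0.113) and Ube3a2X 420 (0.0601). The cause was not tested.

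Genes at an unadjusted p under 0.05 numbered 271, and 712 with 2 surrogate variables, 669 with these in limma-voom, 709 with filterByExpr, 479 with the trend removed (411 without WT 471) and 641 with all 18 hypothalamus libraries. Without 1 library they ranged from 84 (Ube3a2X 272) to 2689 (WT 262), with 100 without Ube3a2X 468, 122 without WT 410, 175 without WT 398 and 624 without Ube3a2X 417. For the sex difference 909 were found with 2 surrogate variables, and 60 (without Ube3a2X 272) to 479 (without WT 262) with 1 library left out, 440 without WT 471. For the tissue difference the range was 344 (without WT 471) to 1004 (without WT 410). Both interactions had 0 calls with each female hypothalamus library left out.

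WT and Ube3a2X mice share no mouse number, so the genotype comparison holds no pairs. For the tissue difference, where 6 mice gave both tissues, limma-voom found 452 genes at an unadjusted p under 0.05, and 423 with the mouse as a replicate block, both with 0 calls.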

Other observations

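Genes of antigen presentation by MHC class I, a list written after the values were seen, had a median log2 fold change of -0.34, and of -0.21 without WT 471. Of 15 tested, 7 were lower at an unadjusted p under 0.05 (1.84% of all genes were) and none higher, and 13 were below 0 (52.7% of all genes). Without WT 471, 2 were lower at that p (0.829% of all genes) and 13 were below 0 (47.2% of all genes). Since the list was written with these values known, the counts only describe it. Their summed CPM overlapped, at 338 to 451 in WT 262, 398 and 410, 522 in WT 471 and 301 to 360 in the Ube3a2X libraries. H2-K1, a classical class I heavy chain gene, was at 18.3, 30.9, 19.4 and 34.0 CPM in WT 262, 398, 410 and 471, and at 18.6, 17.7, 19.03, 16.0 and 14.1 CPM in Ube3a2X 272, 417, 420, 462 and 468 (-0.55, SE 0.18, and -0.42, SE 0.18, without WT 471). The groups overlapped through WT 262, and WT 398 and 471 were the highest. B2m, the light chain gene, had -0.36 (SE 0.13) and -0.24 (SE 0.10), and H2-Q4, a non-classical heavy chain gene, had -0.75 (SE 0.25) and -0.64 (SE 0.29). H2-Q4 was at -0.46 without WT 398 and at -0.94 without WT 262. No gene of the list was called after adjustment in edgeR (adjusted p = 0.655). Microglial markers had a median of -0.19, and -0.04 without WT 471, and the part of microglia in these values was not tested.

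Genes that respond to glucocorticoids, also listed after the values were seen, included the DESeq2 call Zbtb16, a zinc finger transcription factor. It was at 34.2, 31.5, 21.1 and 4.46 CPM in WT 262, 398, 410 and 471, and at 31.1, 16.3, 21.97, 12.7 and 15.2 CPM in Ube3a2X 272, 417, 420, 462 and 468. The groups overlapped, and WT 471 was the lowest library (log2 fold change -0.18, SE 0.48, and -0.80, SE 0.17, without WT 471). Its value was above 0 without WT 262 (0.17), Ube3a2X 417 (0.0061) or Ube3a2X 462 (0.010). Fmo2, a flavin monooxygenase gene, had -0.36 (SE 0.28) and -0.69 (SE 0.20), and -0.09 without WT 262, whereas the metallothionein genes Mt1 and Mt2 had -0.73 and -0.72 (SE 0.30 and 0.24) and -0.22 and -0.30 (SE 0.22 and 0.17). Of 17 tested, 2 were lower at an unadjusted p under 0.05 in each fit, a different pair each time (1.84% of all genes were with all libraries and 0.829% without WT 471), and none was higher.

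Pcsk1n, the gene of the secretory granule protein proSAAS, was also named after its values were seen. It was at 22.8, 247, 248 and 820 CPM in WT 262, 398, 410 and 471, and at 36.7, 34.8, 102, 101 and 65.3 CPM in Ube3a2X 272, 417, 420, 462 and 468 (-1.98, SE 0.67, and -0.87, SE 0.93, without WT 471). WT 262 was the lowest of the 9 libraries and WT 471 the highest.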
